A study of Mus musculus with 6 samples.

Results

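The 10 genes examined mark excitatory neurons of cortical layers 5 and 6, namely Tbr1, Bcl11b, Fezf2, Foxp2, Sox5, Etv1, Ntsr1, Syt6, Crym and Ldb2. They were chosen by name, and all 10 were found among the 47794 genes of the deposited table. RNA-seq had been carried out on primary somatosensory cortex of C57BL/6 mice at 14 days of age, with 3 libraries in each of 2 groups. The control group carried the β-cat lox(ex3) allele alone, a Ctnnb1 gene whose exon 3 is flanked by loxP sites. The overexpression group carried β-cat lox(ex3) together with Nex-Cre. Cre in this line is made from the Neurod6 locus, which is active in excitatory neurons of the dorsal forebrain, and excision of exon 3 leaves a β-catenin protein that resists degradation. The controls had no Cre, so an effect of the Cre allele itself and one of β-catenin cannot be told apart. Nothing in the labels states that the libraries of a group were from different animals, and the spread behind each p-value may therefore not be one between animals.

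Many projection neurons of the deep layers send axons out of the cortex. Among these, cells of layer 5 reach the brainstem, spinal cord and striatum and cells of layer 6 the thalamus. Their identities are set during development by transcription factors that restrain one another, with Fezf2 and Bcl11b directing the subcerebral fate of layer 5 and Tbr1 and Sox5 the corticothalamic fate of layer 6. At 14 days these identities have been assigned, and the genes serve as markers of the cell classes. β-Catenin carries canonical Wnt signals to the nucleus by binding TCF/LEF factors on DNA.

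Because of this link, the 250 bases before the transcription start of the members were searched for the TCF/LEF core on both strands, in 4 spellings, which were CTTTGAA, its variant CTTTGAT, the spelling CTTTGTA and last the spelling CTTTGTT. RefSeq promoter sequences of build GRCm38.p6 were at hand for 7 members in 10 windows, and Foxp2, Crym and Ldb2 had no entry. A match was found in 2 of the 10 windows, those of Tbr1 and Bcl11b, against 14.8% of all 32851 windows. The matches are shown in capitals within 30 bases of each promoter. The Tbr1 stretch lies at chr2:61804255-61804284 on the plus strand, with the match starting 187 bases before the transcription start. The Bcl11b stretch lies at chr12:108003485-108003514 on the minus strand, with the match starting 89 bases before the start. Both windows overlap an exon of another annotated transcript of the same gene, for 250 and 188 of their 250 bases.
Tbr1: aaattgcacatCTTTGAAtcttcctgaagc
Bcl11b: gaggccaagcaCTTTGAAgaagtgtgagag
A pair of windows without a match is shown whole, a window of Etv1 and that of Ntsr1. Etv1 was the member with the lowest ratio of overexpression to control mean, and Ntsr1 the member whose library values could be read in both groups. The windows shown lie at chr12:38779832-38780081 and chr2:180499726-180499975, both on the plus strand, and neither overlaps an annotated exon of its gene. Their G and C contents were 46.4% and 68.4%. Etv1 had a further window, not shown, at chr12:38783461-38783710, with 0 matches and 241 of its 250 bases in annotated exons.
Etv1: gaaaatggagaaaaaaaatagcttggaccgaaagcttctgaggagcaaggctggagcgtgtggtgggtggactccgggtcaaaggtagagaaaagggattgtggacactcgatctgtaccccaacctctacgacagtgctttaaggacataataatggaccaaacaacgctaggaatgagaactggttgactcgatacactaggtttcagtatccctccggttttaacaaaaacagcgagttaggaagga
Ntsr1: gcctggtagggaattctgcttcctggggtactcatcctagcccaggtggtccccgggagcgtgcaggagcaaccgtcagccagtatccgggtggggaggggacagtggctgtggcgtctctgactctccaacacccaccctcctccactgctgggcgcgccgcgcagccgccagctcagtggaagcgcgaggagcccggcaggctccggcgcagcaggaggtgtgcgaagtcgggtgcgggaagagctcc
These matches describe letters only. The log2 ratios of overexpression to control means were -0.05 for Tbr1 and -0.04 for Bcl11b. Those of Ntsr1 and Sox5, whose windows held no match, were of like size, at 0.05 and 0.06. A relation between the matches and the group differences was not tested.

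No member passed the authors' test for a difference between the groups. By the adjusted p of the authors' deposited table, at 0.05, the count was 0 of 10 members and 0% of the 30152 genes tested. At an unadjusted p under 0.05 the count was again 0 of 10, against 0.534% of all genes tested, made up of 0.328% with a higher and 0.206% with a lower overexpression mean. Unadjusted p-values of the members ran from 0.188 for Foxp2 to 0.843 for Crym, with a median of 0.678, and the median over all genes tested was 0.725. The group means of all 10 members lay less than 1.2-fold apart, as did those of 98.6% of 9156 genes averaging at least 250 scaled reads. Less than 1.1-fold apart were 8 members, all but Foxp2 and Etv1, and 87.5% of those genes. The median log2 ratio of overexpression to control means was -0.04 over the members and -0.02 over those genes. The libraries were made from whole tissue, so fewer deep-layer neurons and less RNA per neuron cannot be told apart.

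**Figure D1:**
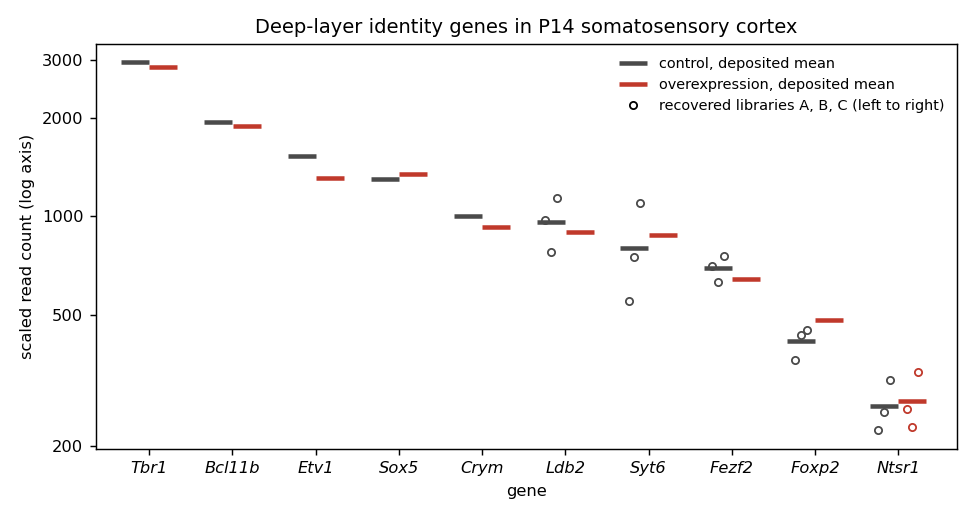
Scaled read count on a log axis for the 10 members, ordered by control mean, with control in grey and overexpression in red. Horizontal marks are the authors' deposited group means, and open circles are library values recovered from those means for 5 members in control and for Ntsr1 in overexpression cortex. The circles of Syt6 span 551 to 1096 in control cortex, wider than the gap between its group means.

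Among the regulators of layer 6, Tbr1, a T-box factor needed for corticothalamic identity, was the most abundant member. Its deposited mean scaled read count, the authors' group mean of reads divided by a scaling factor per library, was 2847 in overexpression and 2946 in control cortex, a log2 ratio of -0.05 (p = 0.713 in the authors' deposited table). Sox5, an SRY-box factor that times the production of deep-layer neurons, had deposited means of 1351 and 1299, a log2 ratio of 0.06 (p = 0.712 in the authors' deposited table). The means of both genes were close, at 1.03-fold and 1.04-fold apart. Foxp2, a forkhead factor of corticothalamic neurons, had the highest ratio of the 10, with deposited means of 484 in overexpression and 416 in control cortex and a log2 ratio of 0.22 (p = 0.188 in the authors' deposited table). The table holds group means alone, but a mean of 3 whole read counts with fixed scaling factors can often be split in 1 way only, and the library values recovered so carry the letters A to C, from the largest scaling factor to the smallest. In the control libraries Foxp2 had recovered values of 364.5, 434 and 450, a mean of 416 ± 45.5 (SD, n = 3). The overexpression mean of Foxp2 lay above all 3 of these control libraries, but it could be split into whole reads of 3 libraries in 2 ways. One gave 403, 520 and 529 and the other 651, 512 and 289, and in both the groups overlapped.

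Among the regulators of layer 5, Fezf2, a zinc finger factor that specifies subcerebral neurons, had deposited means of 646 in overexpression and 698 in control cortex, a log2 ratio of -0.11 (p = 0.447 in the authors' deposited table). The control libraries of Fezf2 held 706, 630 and 758, so the overexpression mean lay inside the control range. Bcl11b, also called Ctip2, which acts downstream of Fezf2 in axon outgrowth, had means of 1886 and 1937, a log2 ratio of -0.04 (p = 0.838 in the authors' deposited table). The difference of Bcl11b was the smallest of the 10. Etv1, an ETS factor of layer 5 neurons, had the lowest ratio. Overexpression cortex had a deposited Etv1 mean of 1307 and control cortex of 1530, which is a log2 ratio of -0.23 (p = 0.33 in the authors' deposited table). The Etv1 means were too high to be split into library values without ambiguity.

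The other 4 members are not classical fate regulators. Ntsr1, the neurotensin receptor whose promoter is used to label corticothalamic neurons, was the only member with library values in both groups and so the only 1 of the 10 that limma could test. Its control values were 223, 254 and 317, a mean of 264 ± 47.7 (SD, n = 3). Its overexpression values were 260, 229 and 335, a mean of 275 ± 54.8 (SD, n = 3). The values of the groups interleaved. limma gave a log2 fold change of 0.05 with a standard error of 0.16 and a 95% interval of -0.30 to 0.40 (p = 0.758, adjusted p = 0.999 over 9784 recovered genes), and the exact two-sided permutation test over libraries gave p = 0.7, where 3 against 3 cannot go below 0.1. By limma 0% of the 9784 genes passed at an adjusted p under 0.05 and 2.13% at an unadjusted p under 0.05, and in 7.14% the groups did not overlap. The sign of the Ntsr1 difference rested on single libraries, since the limma fold change in log2 was -0.06 without control library A and -0.10 without overexpression library C.

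Syt6, a synaptotagmin of layer 6 neurons, had deposited means of 878 in overexpression and 800 in control cortex, a log2 ratio of 0.13 (p = 0.643 in the authors' deposited table). Syt6 stood at 551, 753 and 1096 in control libraries A, B and C, a mean of 800 ± 276 (SD, n = 3). The highest control library was thus 1.99 times the lowest, and without control library A the log2 ratio was -0.08, while without control library C it was 0.43. Crym, which encodes the thyroid hormone-binding protein μ-crystallin, had means of 931 and 1004, a log2 ratio of -0.11 (p = 0.843 in the authors' deposited table). Ldb2, a cofactor of LIM-domain transcription factors, had means of 895 and 964, a log2 ratio of -0.11 (p = 0.599 in the authors' deposited table). Control libraries A, B and C held 973, 777 and 1141 for Ldb2, with the overexpression mean inside their range, and without control library C its log2 ratio was 0.03.

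Overlap of the groups could be examined for all 10 members, although most means allowed several splits. Every split of a mean into whole reads of 3 libraries, each within 2-fold of the mean, was listed for both groups. For Tbr1 there were 26 splits in control and 69 in overexpression cortex, which make 1794 pairs, and for Etv1 there were 70 pairs. In 0 of the pairs did the groups separate completely, for these genes and for the other 8 members, and since only 7.14% of the 9784 genes recovered in both groups had groups that did not overlap, a count of 0 in 10 members is near that background. Under that 2-fold limit, whichever split is the true one, no member had all 3 libraries of one group above all 3 of the other. The group means lay less than 1.2-fold apart, while each library could lie up to 2-fold from its mean. Overlap was therefore likely beforehand, and the count is not a result about the members. The 7.14% comes from genes with overexpression means of at most 450, a limit that among the members only Ntsr1 met.

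**Figure D2:**
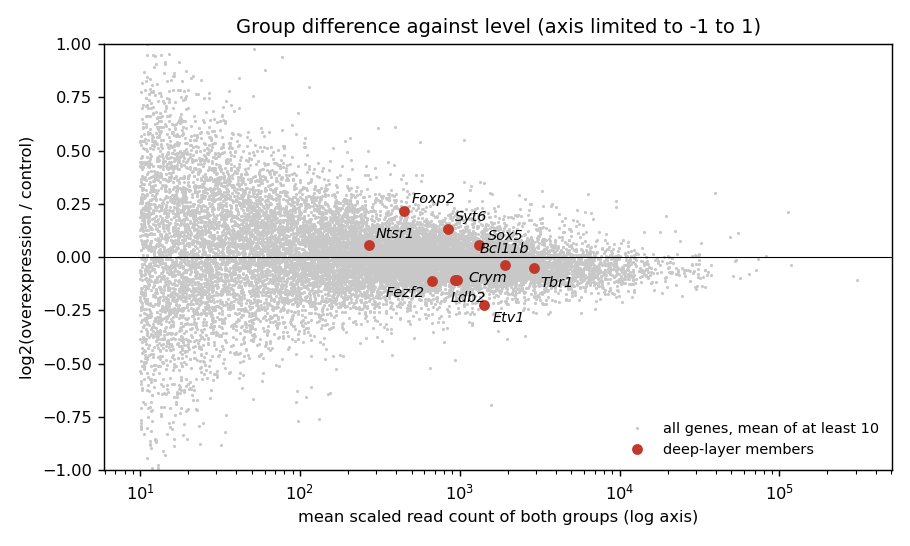
Log2 ratio of the deposited overexpression mean to the control mean against the mean of both groups (log axis), with all genes with a mean of at least 10 in grey and the 10 members in red. The vertical axis is limited to -1 to 1. The members lie between -0.23 for Etv1 and 0.22 for Foxp2, inside the cloud of genes of like level.

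Levels of different members were compared per kilobase of annotated exon, using the union of exons in GENCODE M21, which counts rarely used exons in full. In control cortex Tbr1 had 537 scaled reads per kilobase. Crym followed with 296, Ldb2 with 289, Bcl11b with 239 and Fezf2 with 229. The control libraries of Ldb2 ran from 233 to 342 per kilobase and those of Fezf2 from 207 to 248.6, so these genes overlapped. Syt6 stood at 137 per kilobase, with libraries from 94.5 to 188, all below those of Fezf2 at 207 or more. Below it were Etv1 at 115, Sox5 at 90.3 and Ntsr1 at 67.5 per kilobase. Foxp2 was lowest at 25.5 per kilobase, with libraries from 22.3 to 27.5, all under the 56.9 to 80.8 of Ntsr1. The order in overexpression cortex was the same from Tbr1 at 519 to Foxp2 at 29.6 per kilobase. No member shared exons with a gene of appreciable level. Sox5os1, antisense to Sox5, was listed at 0 in both groups, and Atg4a-ps, which overlaps Syt6, at 0.972 in overexpression and 0 in control cortex.

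When the members were divided by layer, a split made after the values were seen, 4 of the 5 layer 6 genes (Sox5, Foxp2, Ntsr1 and Syt6, but not Tbr1) had a higher overexpression mean. All 5 layer 5 genes (Fezf2, Bcl11b, Etv1, Crym and Ldb2) had a lower one. The median log2 ratio was 0.06 for the first and -0.11 for the second, and these counts restate the values that prompted the split. Without control library A the log2 ratios of Ntsr1 and Syt6 were -0.05 and -0.08, and without control library C that of Ldb2 was 0.03, so single libraries set the sign for 3 of the 5 members with recovered control libraries. Of all genes averaging at least 250 scaled reads, 39.0% had the higher mean in overexpression cortex. Lower means were also common outside layer 5. Among 8 general excitatory neuron markers 0 were higher and 8 lower (median log2 ratio -0.07). These markers include Neurod6, whose locus carries Cre in the overexpression group alone. Among 12 interneuron markers 2 were higher and 10 lower, while 8 of 10 oligodendrocyte markers had a higher mean. Other genes of the same layers were counted beside them. Of 14 other corticothalamic genes of layer 6, 10 had higher and 4 had lower overexpression means, with a median log2 ratio of 0.05. Against 0.534% of all genes tested, 0 of these 14 had an authors' unadjusted p under 0.05. Garnl3 (4364 in overexpression and 3970 in control cortex) and Grik3, a kainate receptor subunit gene (2520 and 2412), were the most abundant of these. Igfbp4, which encodes a binding protein for insulin-like growth factors, had the lowest ratio of this list, at 1809 and 2102 (log2 ratio -0.22, with p = 0.0714 in the authors' deposited table).

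Of 17 other layer 5 genes, 6 had higher and 11 had lower overexpression means, with a median log2 ratio of -0.03. Against 0.534% of all genes tested, 0 of these 17 had an authors' unadjusted p under 0.05. Lgi2 (2377 in overexpression and 2484 in control cortex) and Parm1 (1586 and 1724) were the most abundant. Tshz2, a zinc finger gene of near-projecting neurons, had the lowest ratio at 98.1 and 166 (log2 ratio -0.76, with p = 0.351 in the authors' deposited table). The control libraries of Tshz2 held 117, 88.6 and 293, with control library C far above the other control libraries, and the overexpression values of 139, 76.2 and 78.6 overlapped them (exact two-sided permutation p = 0.5). Pcp4 had the highest ratio, at 18.2 and 13.6 (log2 ratio 0.42, with p = 0.547 in the authors' deposited table). The share of higher means in this layer 5 list and its median were near those of all genes averaging at least 250 scaled reads (39.0% and -0.02). The layer 5 list also holds genes below that level, such as Tshz2 and Pcp4. The layer 6 list, with 10 of 14 higher and a median of 0.05, lay further from those values, a difference that was not tested. No gene of either list was called.

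**Figure D3:**
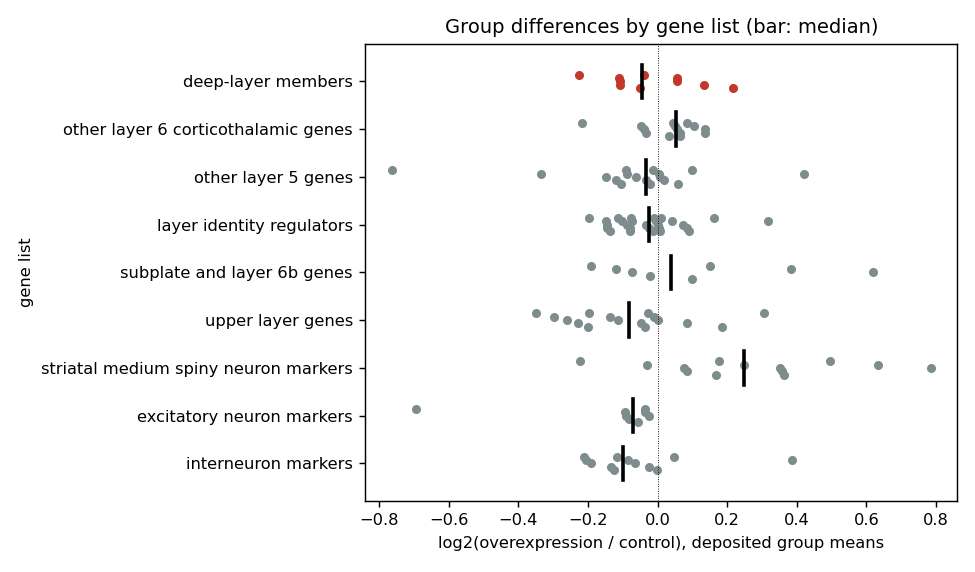
Log2 ratio of overexpression to control means for each gene (dots, 1 per gene) of the deep-layer members and of 8 other lists, with the list median as a black bar. Members are in red. Other corticothalamic genes have a median of 0.05, other layer 5 genes of -0.03, upper layer genes of -0.08 and striatal markers of 0.25.

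Of 27 other regulators of layer identity, a list that shares Cux2, Lmo4 and others with the upper layer list, 10 had higher and 17 had lower overexpression means. Their median log2 ratio was -0.03. Against 0.534% of all genes tested, 0 of these 27 had an authors' unadjusted p under 0.05. Zbtb18 (8417 and 8889) and Myt1l (6407 and 6872) were the most abundant. The lowest ratio belonged to Lmo4, a LIM-domain partner of the Ldb proteins (4318 and 4947, log2 ratio -0.20, with p = 0.163 in the authors' deposited table). The highest belonged to Tle2, a Groucho corepressor (290 and 233, log2 ratio 0.32, with p = 0.197 in the authors' deposited table). For 16 upper layer genes the counts were 4 higher and 12 lower, with a median of -0.08. Cux2, an upper layer homeobox gene, stood at 3603 and 3902, and Wfs1 had the lowest ratio of that list at 1525 and 1942 (log2 ratio -0.35, with p = 0.313 in the authors' deposited table). Cartpt, a neuropeptide precursor gene, had the highest ratio there at 188 and 152 (log2 ratio 0.31).

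Of 9 listed genes of the subplate and layer 6b, the deepest cortical neurons, 8 were found by symbol. Among these 8 genes, 4 had higher and 4 lower overexpression means. The remaining gene was not found under its listed symbol, which does not show that it was unmeasured. Of all genes found for the layer lists, the unadjusted p of the authors was under 0.05 for Nxph4 and Cplx3 alone. Nxph4 encodes a neurexophilin and Cplx3 a complexin. Over all genes tested it was under 0.05 for 0.534%. Nxph4 had recovered values of 101, 124 and 98.3 in overexpression against 63.1, 69.1 and 78.3 in control cortex. Its groups did not overlap, as in 7.14% of the 9784 genes recovered in both groups. For Nxph4 limma gave an adjusted p of 0.999 (log2 fold change 0.61, standard error 0.18, unadjusted p = 0.00455). The exact permutation p was 0.1, the smallest that 3 against 3 allows. Nr4a2, an orphan nuclear receptor gene, and Lpar1, a lysophosphatidic acid receptor gene, had means of 764 and 683 in overexpression and 805 and 615 in control cortex. The lowest ratio was that of Inpp4b, at 115 and 132 (log2 ratio -0.19). Cplx3 had deposited means of 606 and 465 (log2 ratio 0.38, with p = 0.00459 and adjusted p = 1 in the authors' deposited table).

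Within control cortex the recovered members spanned from 1.2-fold (Fezf2) to 1.99-fold (Syt6) between the lowest and the highest library, while their group means were 1.04-fold (Ntsr1) to 1.16-fold (Foxp2) apart. Control library C had the highest value for 5 of 5 recovered members, while among 4803 control genes with a mean of 250 to 1000 it was highest for 33.9%. Library A was lowest for Foxp2, Ntsr1 and Syt6, and library B was lowest for Fezf2 and Ldb2. The coefficient of variation over control libraries was 9.22% for Fezf2, 10.9% for Foxp2, 18.02% for Ntsr1, 18.9% for Ldb2 and 34.5% for Syt6. The median over the 4803 genes was 7.27% and the 90th percentile 15.3%. Counting error alone, from 219 to 1035 reads per gene and library, would give 3.33% to 6.37% for these 5 genes. The same library was highest for 5 of 6 recovered other corticothalamic genes, such as Zfpm2 at 381, 383 and 503, Sstr2 at 438, 464 and 596, and Cdh9 at 424, 430 and 537 in libraries A, B and C. Rprm differed less between libraries, at 850, 810 and 892, and Sulf1 was highest in library B, at 278, 334 and 320. Library C was highest for 6 of 8 subplate and layer 6b genes and for 6 of 12 other layer 5 genes, against 36.8% of all 12685 recovered control genes.

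**Figure D4:**
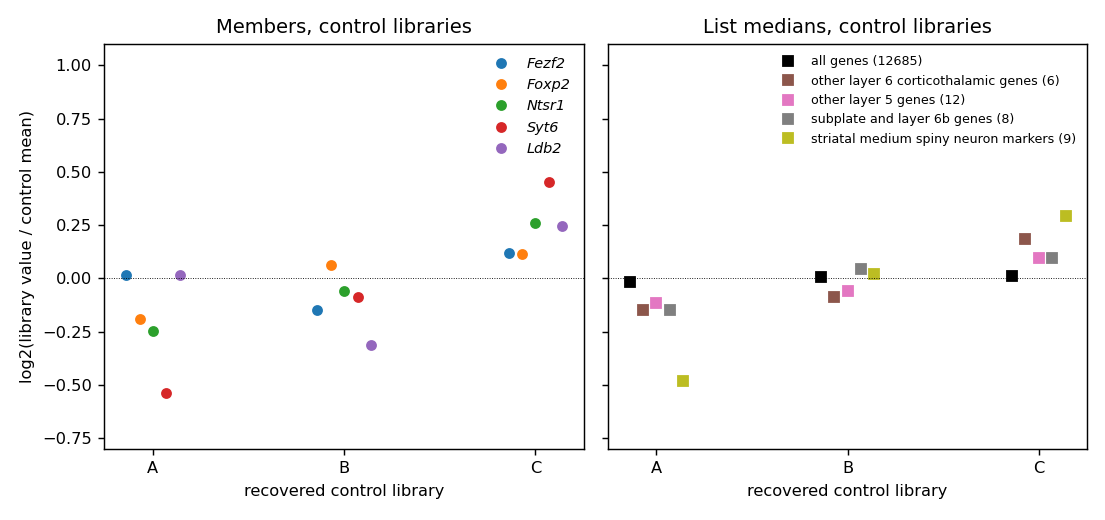
Left, log2 of each recovered control library value over the control mean for the 5 members with recovered values. Right, the median over genes of the same quantity, with 1 added to value and mean, for all recovered genes and 4 lists, with the number of genes in brackets. Points are shifted sideways within a library for legibility, and library C lies above 0 for all 5 members while the median of all genes stays near 0.

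Markers of tissue next to the cortex also differed between control libraries. Medium spiny neurons of the striatum express Foxp2 and Bcl11b, and 11 of 13 of their markers had a higher overexpression mean (median log2 ratio 0.25). The authors' unadjusted p was under 0.05 for 0 of these markers and for 0.534% of all genes tested. The mean of Foxp2 was higher and that of Bcl11b lower. Summed deposited means of the 13 markers were 8340 in overexpression and 7533 in control cortex, and none of these markers was at 0. Over 9 recovered markers the summed values were 1501, 2258 and 2830 in control libraries A, B and C. Library A was thus lowest and library C highest, as for Syt6, Ntsr1 and Foxp2, while Fezf2 and Ldb2 were lowest in library B. Drd1, a dopamine receptor gene of these neurons, stood at 219, 292 and 353. In overexpression libraries A, B and C, 7 recovered markers summed to 926, 1100 and 1307. There the summed markers were lowest in library A and highest in library C. Ntsr1 was lowest in library B and, like the markers, highest in library C. That library was highest for 6 of these 7 markers and for 30.5% of all 9814 recovered overexpression genes. Of 7 hippocampal markers 4 had a higher and 3 a lower overexpression mean (median log2 ratio 0.01), and the 3 recovered in control cortex were lowest in library C, with Dsp at 340, 216 and 9.93 and Lct at 357, 415 and 110 in libraries A, B and C. Of 9 thalamic markers detected in both groups, 3 had a higher and 6 a lower overexpression mean (median log2 ratio -0.03). The authors' unadjusted p was under 0.05 for 1 of the 10 listed thalamic markers, with a lower overexpression mean, against 0.534% of all genes tested. The part of dissection and of striatal, hippocampal or thalamic RNA in the values of the members was not tested.

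Further values of the series bear on these comparisons. Ctnnb1, the targeted gene, had deposited means of 6391 in overexpression and 7574 in control cortex (log2 ratio -0.25, with p = 0.0304 and adjusted p = 1 in the authors' deposited table), a gene-level value that covers exons outside the removed one and does not check the labels. Neurod6, the locus that carries Cre in the overexpression group, had deposited means of 1199 and 1942 (log2 ratio -0.70, with p = 5.04e-05 and adjusted p = 0.76 in the authors' deposited table). Excitatory neuron markers, which the tissue label implies, were abundant in both groups, with Slc17a7, the cortical vesicular glutamate transporter gene, at 30449 and 31689. For recovered genes with a mean of 250 to 450, the 95% interval of a limma fold change reached 1.19-fold to either side at the median, so a difference the size of that of Ntsr1 was not detectable at this depth and number of libraries.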

How the data were processed

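Total RNA of primary somatosensory cortex had been sequenced from 3 control and 3 overexpression libraries. Tools named by the submitters' processing notes are TopHat2 2.0.9 and Bowtie2 2.0.6. Not given in the sources used here are the genome build, the counter, its strand setting and the authors' differential test. Per the file headers, the authors deposited 1 read count signal per gene and group, with p-values before and after adjustment. That the signal is a mean of scaled counts was read from the values. The authors' log2 fold changes, per the file headers, were recomputed from the group means and differed by at most 4.99e-05. Symbols were found for 98.8% of Ensembl IDs. Genes were called at the authors' adjusted p under 0.05.

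Library values were recovered by matching each mean, within its printed digits, to whole reads of 3 libraries. In control cortex means up to 1000 were searched, those above 500 only within 2-fold of the mean, and in overexpression cortex means up to 450, those above 100 within 2-fold. Exactly 1 combination was found for 99.97% of 23575 control and 99.4% of 21303 overexpression means. Of 4844 control genes with a mean of 100 to 500, 99.4% had all libraries within 2-fold. The libraries are called A, B and C by scaling factor (0.982, 0.926 and 0.907 in control, 1.23, 1.06 and 0.966 in overexpression cortex), a letter pairs nothing across groups, and no letter matches a labelled replicate. Higher factors mean deeper libraries; total reads per library are not used here. limma 3.58.1 in R 4.3.3, with a mean-variance trend, was fitted to log2(value + 1) of 9784 genes averaging 10 or more, a scale that understates changes at low counts. Both scripts were tested on simulated data. Pseudocount, filter, scaling, trend and left-out libraries were varied.

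Members and lists were chosen with earlier results of these data known. Named genes were all members and, in each layer list, genes with an authors' unadjusted p under 0.05, the 2 highest means and the largest and smallest ratios at a mean of at least 10 in that list. Others were chosen after their values were seen. A gene of these lists is not reported here by name.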

Additional observations from a re-analysis of the deposited data

How the results depend on the processing

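No paired analysis was possible because the deposited columns pool the replicates and recovered libraries carry no replicate number. The counts of members called stayed at 0 by the authors' test, over genes with a mean of at least 10 or unadjusted, and at 0 by limma under pseudocounts of 0.5 and 5, no filter, centred libraries, no trend and each library left out, where limma could test Ntsr1 alone. With no filter, 1 gene of 18925, not a member, was called by limma. The median log2 ratio of the 10 members was -0.04, and -0.01 with group means scaled to equal column sums, which added 0.03 to every ratio and changed the sign of 0 members. With each library left out the limma fold change of Ntsr1 ran from -0.10 to 0.19, changing sign without control library A (-0.06) and without overexpression library C (-0.10); the cause was not tested. The median ratio of the 5 members with recovered control libraries was 0.05, -0.08 without control library A, 0.03 without B and 0.20 without C. Leaving out a library could not be done for the other 5 members. Means above the search limits set what could be recovered.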
